A study of Mus musculus with 12 samples.

Results

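Luminal cells of the mouse mammary gland at day 18.5 of pregnancy were compared with luminal cells of virgin glands, using 2 RNA sequencing libraries per stage out of 12 libraries in the series. Luminal cells form the inner epithelial layer that lines the ducts and, in pregnancy, the milk-making alveoli. The libraries were taken by their labels alone: pregnant #1 and #2 against virgin #1 and #2. Both groups were FACS-sorted luminal populations of untreated wild type females of the FVB/N strain, and the series describes 2 mice per stage. The sources used here give no ages, no antibodies of the sort and no word on whether a library holds 1 mouse, so the p-values measure the spread between these libraries. Basal (myoepithelial) libraries of both stages serve for 1 comparison near the end, and the other 8 libraries of the series entered the fit for its estimate of spread.

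In pregnancy, progesterone, prolactin and placental hormones drive luminal progenitors to multiply and to become alveolar cells. Prolactin acts through its receptor, the kinase JAK2 and the transcription factor STAT5, which binds casein gene promoters, and ELF5 is the transcription factor most closely tied to the alveolar fate. A separate luminal population carries oestrogen and progesterone receptors and passes hormone signals on to its neighbours by secreted factors. Full milk secretion follows the fall of progesterone around birth.

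The pregnant libraries held 22241607 and 21988240 counts and the virgin libraries 20392113 and 21708152 counts. The 10 most abundant genes took 22.2% and 24.8% of the counts in pregnant libraries, against 6.53% and 5.9% in virgin libraries. It took 356 and 261 genes to make up 50% of the counts in pregnancy, and 817 and 826 genes in virgin cells. The pregnant libraries were thus filled by fewer genes. Levels below are CPM, a gene's count as a share of the library total, scaled by TMM, which sets the typical gene rather than the library total equal between libraries. Changes are log2 ratios of pregnant over virgin with the SE of the edgeR fit. Scaling by library size alone moves the median gene by -0.504, and gene lists move by about as much.

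By edgeR's quasi-likelihood test at a Benjamini-Hochberg adjusted p of 0.05, 7335 of 15969 genes changed (45.9%). Of the genes tested, 3488 rose (21.8%) and 3847 fell (24.1%), and these shares are the background for each gene list below. With library size only, 1212 rose (7.59%) and 8426 fell (52.8%). Large falls outnumbered large rises. Past 4-fold there were 423 rises and 1120 falls, and past 32-fold 48 rises and 152 falls. The median over all tested genes was -0.04.

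**Figure D1:**
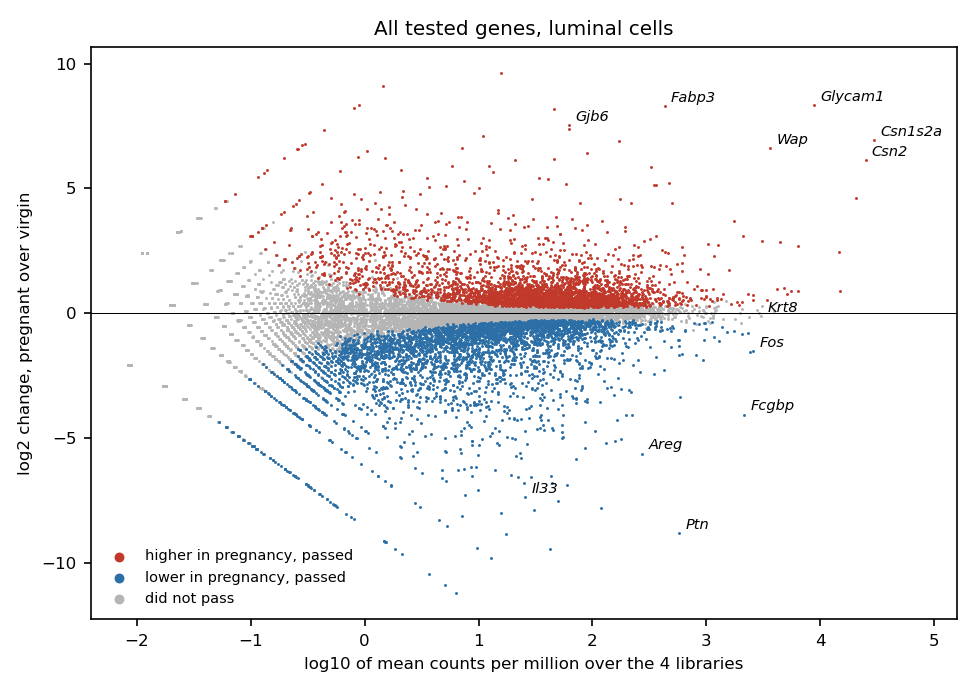
Log2 change of each tested gene (vertical axis, pregnant over virgin) against the log10 of its mean CPM over the 4 libraries (horizontal axis), 1 point per gene with a count in these libraries, red for genes higher and blue for genes lower in pregnancy past the threshold, grey for the rest. Csn1s2a, Csn2 and Glycam1 stand at the far right and high, while Ptn at -8.80 is the lowest of the labelled genes.

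Promoters of 5 milk protein genes are printed here. Csn1s2a, Csn2, Csn1s1 and Glycam1 are among the 5 genes with the largest gain in CPM, and Wap is set beside them. Windows of 250 bases before the RefSeq start (GRCm38.p6) were searched for the letters TTCNNNGAA, the core of the STAT binding motif, which reads the same on both strands. Of 12 casein and other milk protein genes with a window, 3 held it (25%), against 2197 of all 27025 genes with a window (8.13%). Among genes with a window it was found in 6.92% of those that rose, 8.55% of those that fell and 7% of those that did not pass. In the lines below the match is in capitals. The windows lie at chr5:87665958-87666207 on the plus strand for Csn1s1 (Entrez 12990), chr5:87699426-87699675 on the minus strand for Csn2 (Entrez 12991) and chr15:103565082-103565331 on the minus strand for Glycam1 (Entrez 14663). Csn1s2a (Entrez 12993), the gene with the largest gain, at chr5:87774200-87774449 on the plus strand, and Wap (Entrez 22373), at chr11:6638650-6638899 on the minus strand, have no such letters in their windows. Each line reads 5′ to 3′ in the direction of its gene.
Csn1s1: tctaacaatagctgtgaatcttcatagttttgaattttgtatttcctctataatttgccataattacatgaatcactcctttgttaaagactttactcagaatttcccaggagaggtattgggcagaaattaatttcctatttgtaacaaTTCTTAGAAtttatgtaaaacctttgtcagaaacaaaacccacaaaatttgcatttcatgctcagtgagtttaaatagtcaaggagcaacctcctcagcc
Csn2: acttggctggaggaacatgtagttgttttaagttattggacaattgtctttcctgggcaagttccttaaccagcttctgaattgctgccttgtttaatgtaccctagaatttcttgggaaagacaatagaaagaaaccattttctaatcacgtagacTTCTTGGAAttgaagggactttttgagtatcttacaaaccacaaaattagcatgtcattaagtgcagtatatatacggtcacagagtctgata
Glycam1: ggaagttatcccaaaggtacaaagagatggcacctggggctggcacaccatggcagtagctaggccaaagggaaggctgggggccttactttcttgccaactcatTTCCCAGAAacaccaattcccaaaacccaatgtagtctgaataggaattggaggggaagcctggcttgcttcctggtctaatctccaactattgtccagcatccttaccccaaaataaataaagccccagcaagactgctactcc
Csn1s2a: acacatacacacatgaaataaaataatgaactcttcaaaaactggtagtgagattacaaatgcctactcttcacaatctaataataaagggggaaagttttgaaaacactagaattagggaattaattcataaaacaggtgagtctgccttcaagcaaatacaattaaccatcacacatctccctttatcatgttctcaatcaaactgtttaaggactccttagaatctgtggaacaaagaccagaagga
Wap: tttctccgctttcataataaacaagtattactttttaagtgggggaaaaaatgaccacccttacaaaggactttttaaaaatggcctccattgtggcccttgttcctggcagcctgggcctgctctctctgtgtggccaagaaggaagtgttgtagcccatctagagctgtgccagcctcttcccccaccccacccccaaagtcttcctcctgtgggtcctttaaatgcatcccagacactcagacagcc
The match began 100 bases before the start in Csn1s1, 93 in Csn2 and 145 in Glycam1. A match of letters is not a measured binding site, and these 5 genes were picked with their changes known.

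The 5 casein genes rose. Caseins are the micelle-forming proteins that carry calcium and phosphate in milk. Together they took 14.5% and 16.1% of the counts of pregnant libraries, against 0.55% and 0.687% of virgin libraries. Csn1s2a had 53201 and 65421 CPM in pregnant libraries, against 442 and 518 CPM in virgin libraries (log2 change 6.95, SE 0.33). Csn2, beta-casein, had 44804 and 53657 CPM in pregnant libraries and 542 and 864 CPM in virgin libraries (6.13, SE 0.40). Csn3, the kappa-casein that stabilises the micelle, had 10123 and 12165 CPM in pregnancy and 1632 and 1825 CPM in virgin cells (2.69, SE 0.22). No casein overlapped between the groups, as was so for 35.1% of all genes tested with pregnancy above and for 39% with pregnancy below. Per length of transcript the order in pregnancy was Csn1s2a (64468 RPKM), Csn2 (43956 RPKM), Csn1s1 (27856 RPKM) and Csn3 (6978 RPKM). In virgin cells Csn1s1 led with 1141 RPKM, followed by Csn3 with 1082, Csn2 with 628 and Csn1s2a with 521 RPKM. The related gene Csn1s2b was low throughout, with 13.9 and 22.9 CPM in pregnant and 3.16 and 2.09 CPM in virgin libraries. Since whole sorted populations were sequenced, fewer cells of a type and less RNA per cell cannot be told apart in this or any later result.

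Of 11 genes for whey and other milk proteins 9 rose (median 2.87). Glycam1, a mucin-like milk glycoprotein, had 13791 and 21128 CPM in pregnant libraries and 52.6 and 55.0 CPM in virgin libraries (8.34, SE 0.29). Wap, whey acidic protein, was uneven in pregnancy with 4456 and 9853 CPM, against 72.2 and 75.5 CPM in virgin cells (6.60, SE 0.38). Lalba, the regulatory subunit of lactose synthase, had 410 and 785 CPM in pregnant and 138 and 214 CPM in virgin libraries, a smaller rise of 1.76 (SE 0.31). Pregnant library 2 stood above library 1 for each of these 3 genes. Olah, the thioesterase that releases medium-chain fatty acids from fatty acid synthase, had 93.6 and 136 CPM in pregnant libraries, against 1.61 and 4.73 CPM in virgin libraries (5.17, SE 0.33). Cel, the bile salt-activated lipase of milk, rose by 2.99 (SE 0.17). Trf, the iron carrier transferrin, rose by 2.44 (SE 0.22), although 63.5% of its exon length is shared with other gene models.

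**Figure D2:**
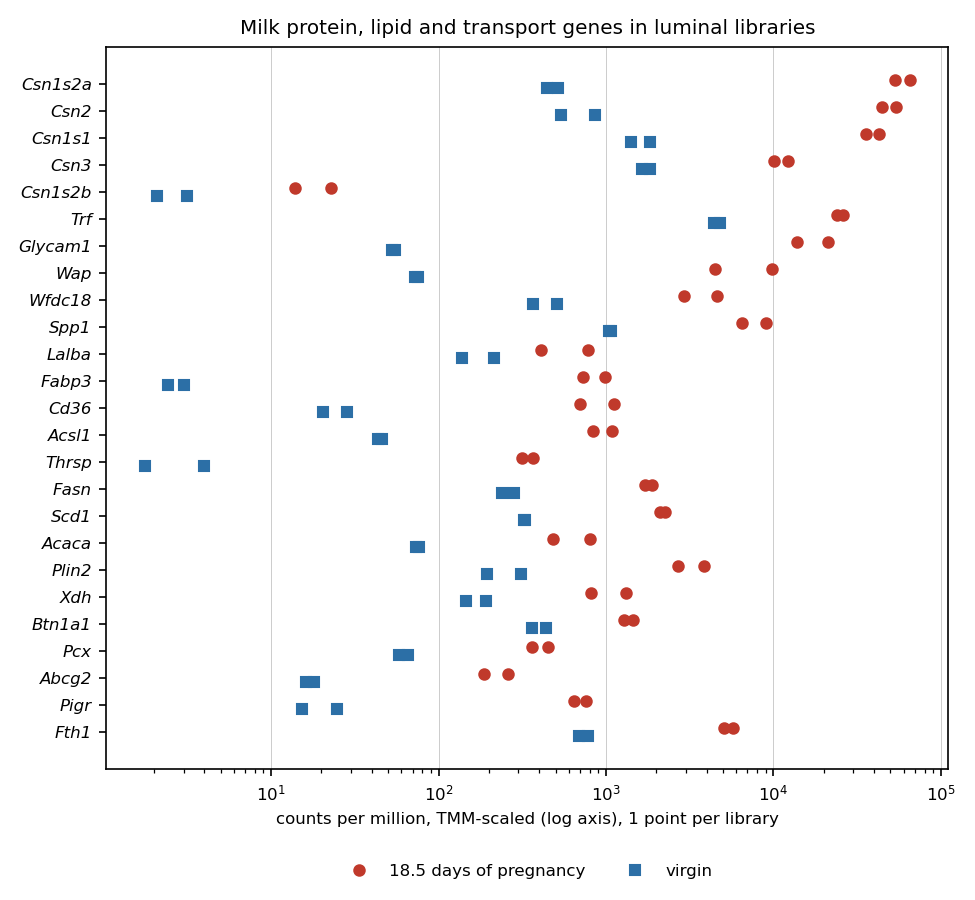
TMM-scaled CPM on a log axis, 1 point per library, for milk protein, lipid and transport genes, with red circles for day 18.5 of pregnancy and blue squares for virgin cells. For all 25 genes drawn the pregnant points lie right of the virgin points, as was so for 35.1% of all genes tested. The gap is widest for Glycam1 and Fabp3.

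Of 21 tested genes of mucosal and milk immune defence, which guard the young and the gland, 9 rose and 4 fell (median 0.62). With library size only it was 7 and 6 (median 0.10), and without pregnant replicate 2 the median was 0.33. Pigr, the receptor that carries IgA into milk, had 762 and 646 CPM in pregnant libraries, against 15.3 and 24.9 CPM in virgin libraries (5.13, SE 0.29). Lpo, lactoperoxidase, had 12.1 and 17.3 CPM in pregnancy and 0.251 and 0.473 CPM in virgin cells (5.31, SE 0.34). The acute phase genes Saa3 and Saa2 rose by 6.62 (SE 0.56) and 3.84 (SE 0.38), though reads of Saa2 and its near-identical neighbour Saa1 may be shared. Saa3 had 8.29 and 20.2 CPM in pregnant libraries, and only 2 and 6 counts in virgin libraries (0.0717 and 0.203 CPM). Ltf, lactoferrin, did not pass, with 285 and 903 CPM in pregnant and 1146 and 723 CPM in virgin libraries. In the other direction Chil1, a chitinase-like protein, had 6.27 and 6.02 CPM in pregnancy and 111 and 96.9 CPM in virgin cells (-4.08, SE 0.22). Reg3g, an antibacterial lectin, had 0 counts in both pregnant libraries and 425 in the virgin libraries. Among mucins and surface glycoproteins 6 of 15 rose and 8 fell, with Ly6d at 2.15 and 2.86 CPM in pregnant and 119 and 163 CPM in virgin libraries (-5.82, SE 0.19).

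Genes of fatty acid synthesis and supply were higher in larger shares than all genes tested. Of 21 genes for synthesis, elongation and desaturation 16 rose and 2 fell, with 1 lower without pregnant replicate 2 and 3 without virgin replicate 2 (median 1.12), and of 27 for uptake and triglyceride assembly 17 rose and 3 fell (median 0.70). With library size only 13 rose and 3 fell for synthesis (median 0.62), and 12 rose and 10 fell for uptake and assembly (median 0.19). Acaca, acetyl-CoA carboxylase, which makes the building block malonyl-CoA, had 483 and 807 CPM in pregnant libraries, against 73.7 and 76.4 CPM in virgin libraries (3.10, SE 0.20). Fasn, fatty acid synthase, had 1894 and 1716 CPM in pregnancy and 281 and 240 CPM in virgin cells (2.79, SE 0.18). Acly, which makes cytosolic acetyl-CoA from citrate, rose by 1.79 (SE 0.15), and Acss2, which makes it from acetate, by 1.73 (SE 0.14). The pregnant libraries lay above the virgin ones for each of them, as was so for 35.1% of all genes tested. The desaturases Scd1 and Fads1 rose by 2.74 (SE 0.18) and 1.93 (SE 0.14).

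On the uptake side Fabp3, a fatty acid carrier inside the cell, had 730 and 988 CPM in pregnant and 2.44 and 3.04 CPM in virgin libraries (8.29, SE 0.24). Cd36, the fatty acid translocase of the cell surface, had 695 and 1120 CPM in pregnancy and 20.5 and 28.4 CPM in virgin cells (5.21, SE 0.33). Acsl1, which activates long-chain fatty acids with CoA, had 832 and 1082 CPM in pregnant libraries, against 43.4 and 46.1 CPM in virgin libraries (4.42, SE 0.18). The final step of triglyceride synthesis was split: Dgat1 had 33.0 and 32.0 CPM in pregnancy and 17.2 and 17.1 CPM in virgin cells, whereas Dgat2 had 4.03 and 4.78 CPM in pregnancy and 33.9 and 34.1 CPM in virgin cells (-2.95, SE 0.14). Of 10 tested lipid droplet and globule genes 6 rose and none fell, with 6 also at an unadjusted p below 0.05 and by DESeq2. Their median was 0.58 by TMM but 0.07 by library size (4 higher, 1 lower). Among those that rose by TMM were Plin2, the coat protein of milk lipid droplets (3.69, SE 0.29), and Cidea, which enlarges droplets (3.50, SE 0.24). Xdh, part of the globule membrane, rose too (2.65, SE 0.26).

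Of 26 genes of cholesterol synthesis and balance 8 rose and 8 fell, against 2 and 14 with library size only. Their median was -0.02, between -0.12 and 0.07 with 1 library left out. Mvd, the decarboxylase of the mevalonate pathway, rose by 1.20 (SE 0.16). Fdft1, squalene synthase, had 11.8 and 11.7 CPM in pregnancy and 28.1 and 29.2 CPM in virgin cells (-1.29, SE 0.17). Abcg1, a sterol exporter, fell by 2.03 (SE 0.27). Members of 1 pathway therefore stood on both sides.

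For lactose synthesis and glucose supply 11 of 17 genes rose and 3 fell, 1 without pregnant replicate 2 and 2 without each of the others, and their median was 0.44 by TMM but -0.06 by library size (3 higher, 4 lower). For glycolysis, the pentose phosphate pathway and the citrate cycle 19 of 33 rose and 3 fell, and their median was 0.45 by TMM but -0.05 by library size (11 higher, 9 lower). B4galt1, the galactosyltransferase that LALBA turns to lactose synthesis, had 627 and 761 CPM in pregnant libraries and 167 and 204 CPM in virgin libraries (1.90, SE 0.18). Slc2a1, the glucose carrier GLUT1, had 344 and 351 CPM in pregnancy and 249 and 247 CPM in virgin cells, a change of 0.49 that was -0.02 with library size only. Pcx, pyruvate carboxylase, which refills the citrate cycle, had 362 and 448 CPM in pregnant libraries, against 57.7 and 65.5 CPM in virgin libraries (2.72, SE 0.16). Pfkl, the liver type of phosphofructokinase, rose by 1.88 (SE 0.13), while the platelet type Pfkp was lower, at 29.7 and 27.3 CPM in pregnancy and 40.0 and 36.8 CPM in virgin cells (-0.43, SE 0.11). Pdha1, of the pyruvate dehydrogenase complex, rose by 1.57 (SE 0.10) and its inhibitory kinase gene Pdk4 by 1.99 (SE 0.29).

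Of 28 tested amino acid transporter genes 10 rose and 5 fell, and their median was 0.24 by TMM but -0.27 by library size (6 higher, 11 lower). Slc6a14, a broad amino acid importer, had 42.3 and 50.2 CPM in pregnant and 4.30 and 4.09 CPM in virgin libraries (3.46, SE 0.26). Slc7a5, the large neutral amino acid carrier LAT1, had 319 and 285 CPM in pregnancy and 80.9 and 78.8 CPM in virgin cells (1.92, SE 0.11). Slc7a2, a carrier of arginine and lysine, went the other way with 13.3 and 19.3 CPM in pregnant libraries, against 330 and 300 CPM in virgin libraries (-4.27, SE 0.18). Its relative Slc7a1 rose by 0.82 (SE 0.18).

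Of 26 genes for zinc, iron and copper 16 rose and 2 fell (median 0.57), with 1 lower when pregnant replicate 2 or either virgin replicate was left out. With library size only 10 rose and 9 fell (median 0.07). Fth1, the heavy chain of the iron store ferritin, had 5077 and 5775 CPM in pregnant libraries and 782 and 690 CPM in virgin libraries (2.88, SE 0.14). Slc39a4, a zinc importer, had 88.9 and 92.2 CPM in pregnancy and 8.39 and 7.60 CPM in virgin cells (3.50, SE 0.16). Atp7b, the copper pump of the secretory pathway, had 51.8 and 85.7 CPM in pregnancy and 8.57 and 8.54 CPM in virgin cells (3.01, SE 0.21). Hephl1, a copper-dependent oxidase, had 72.2 and 110 CPM in pregnant libraries, against 0.287 and 0.338 CPM in virgin libraries (8.16, SE 0.30). Iron, zinc and copper genes were thus each represented among the rises.

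Of 18 tested calcium and phosphate genes 8 rose and 9 fell. Slc20a1, a phosphate carrier, had 884 and 1062 CPM in pregnant and 232 and 254 CPM in virgin libraries (2.00, SE 0.15), and Atp2c2, a calcium and manganese pump of the Golgi, rose by 2.23 (SE 0.21). Stim1, the calcium sensor of the endoplasmic reticulum (ER), had 11.4 and 13.4 CPM in pregnancy and 42.1 and 46.4 CPM in virgin cells (-1.84, SE 0.12). Its channel partner Orai1 was higher, with 72.9 and 78.3 CPM in pregnancy and 21.1 and 26.7 CPM in virgin cells (1.66, SE 0.13), and Orai2 fell by 2.04 (SE 0.21). The partners of store-operated calcium entry therefore moved in different directions.

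Water and salt genes were split as well, with 12 of 38 tested genes higher and 14 lower. Their median was -0.22 by TMM but -0.73 by library size (8 higher, 23 lower). Abcg2, a pump that moves riboflavin and xenobiotics into milk, had 187 and 260 CPM in pregnant libraries and 16.1 and 18.1 CPM in virgin libraries (3.71, SE 0.19). Kcnk6, a potassium leak channel, had 56.5 and 56.6 CPM in pregnancy and 1.97 and 2.73 CPM in virgin cells (4.58, SE 0.16). The water channel Aqp5 had 4.43 and 3.01 CPM in pregnant and 58.3 and 72.4 CPM in virgin libraries (-4.13, SE 0.24). Scnn1a, a subunit of the epithelial sodium channel, fell by 2.62 (SE 0.15). Slc5a5, the iodide importer, had 31.3 and 38.1 CPM in pregnant libraries but 56.2 and 254 CPM in virgin libraries. Its change was -2.16 (SE 0.50), and it was -0.70 and no longer passed without virgin replicate 2.

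In the list of ER translocation and folding 17 of 34 genes rose and 4 fell, 1 without virgin replicate 1 and 2 without each of the others, and their median was 0.40 by TMM but -0.10 by library size (8 higher, 8 lower). Without pregnant replicate 1 it was 0.17. In the Golgi, vesicle and SNARE list 25 of 41 tested genes rose and 7 fell, and their median was 0.45 by TMM but -0.06 by library size (9 higher, 13 lower). Xbp1, a transcription factor that enlarges the ER in secretory cells, had 509 and 568 CPM in pregnant libraries and 132 and 168 CPM in virgin libraries (1.84, SE 0.15). Bhlha15 (MIST1), a factor of secretory cell architecture in other glands, had 15.2 and 10.3 CPM in pregnancy and 2.40 and 3.11 CPM in virgin cells (2.21, SE 0.19). Sec24d, a cargo selector of COPII vesicles, rose by 1.60 (SE 0.12) and Rab30, a Golgi GTPase, by 2.27 (SE 0.14). Syt7, a calcium sensor of regulated secretion, had 2.69 and 4.83 CPM in pregnant and 49.0 and 54.7 CPM in virgin libraries (-3.79, SE 0.22), and Rab27b fell by 2.40 (SE 0.20).

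Among genes of the ATF4 amino acid response 12 of 24 rose and 4 fell, and their median was 0.43 by TMM but -0.07 by library size (9 higher, 9 lower). It was 0.27 without pregnant replicate 1 and 0.72 without virgin replicate 2. Asns, asparagine synthetase, rose by 1.45 (SE 0.11) and Gpt2, a mitochondrial alanine aminotransferase, by 2.05 (SE 0.16), whereas Stc2, a secreted glycoprotein, had 11.1 and 10.3 CPM in pregnancy and 323 and 365 CPM in virgin cells (-5.01, SE 0.14). Genes of mTOR and cap-dependent translation showed 8 higher and 6 lower of 33 (median 0.17), but 5 higher and 19 lower with library size only (median -0.33). Of 78 tested ribosomal protein genes none rose and 3 fell by edgeR, whereas 3 were higher and 4 lower at an unadjusted p below 0.05, and DESeq2 called 1 higher and 3 lower. The fall count was 1 without pregnant or virgin replicate 1. Their median was 0.01, between -0.04 and 0.06 with 1 library left out, and -0.49 with library size only (0 higher, 67 lower). Of 45 nuclear genes of oxidative phosphorylation 32 rose and none fell, with 33 and 0 at an unadjusted p below 0.05 and 32 and 0 by DESeq2. Their median was 0.49, and -0.02 with library size only, by which 3 rose and 7 fell. Ndufa1, of complex I, had 75.3 and 86.6 CPM in pregnant and 29.4 and 29.2 CPM in virgin libraries (1.47, SE 0.10).

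**Figure D3:**
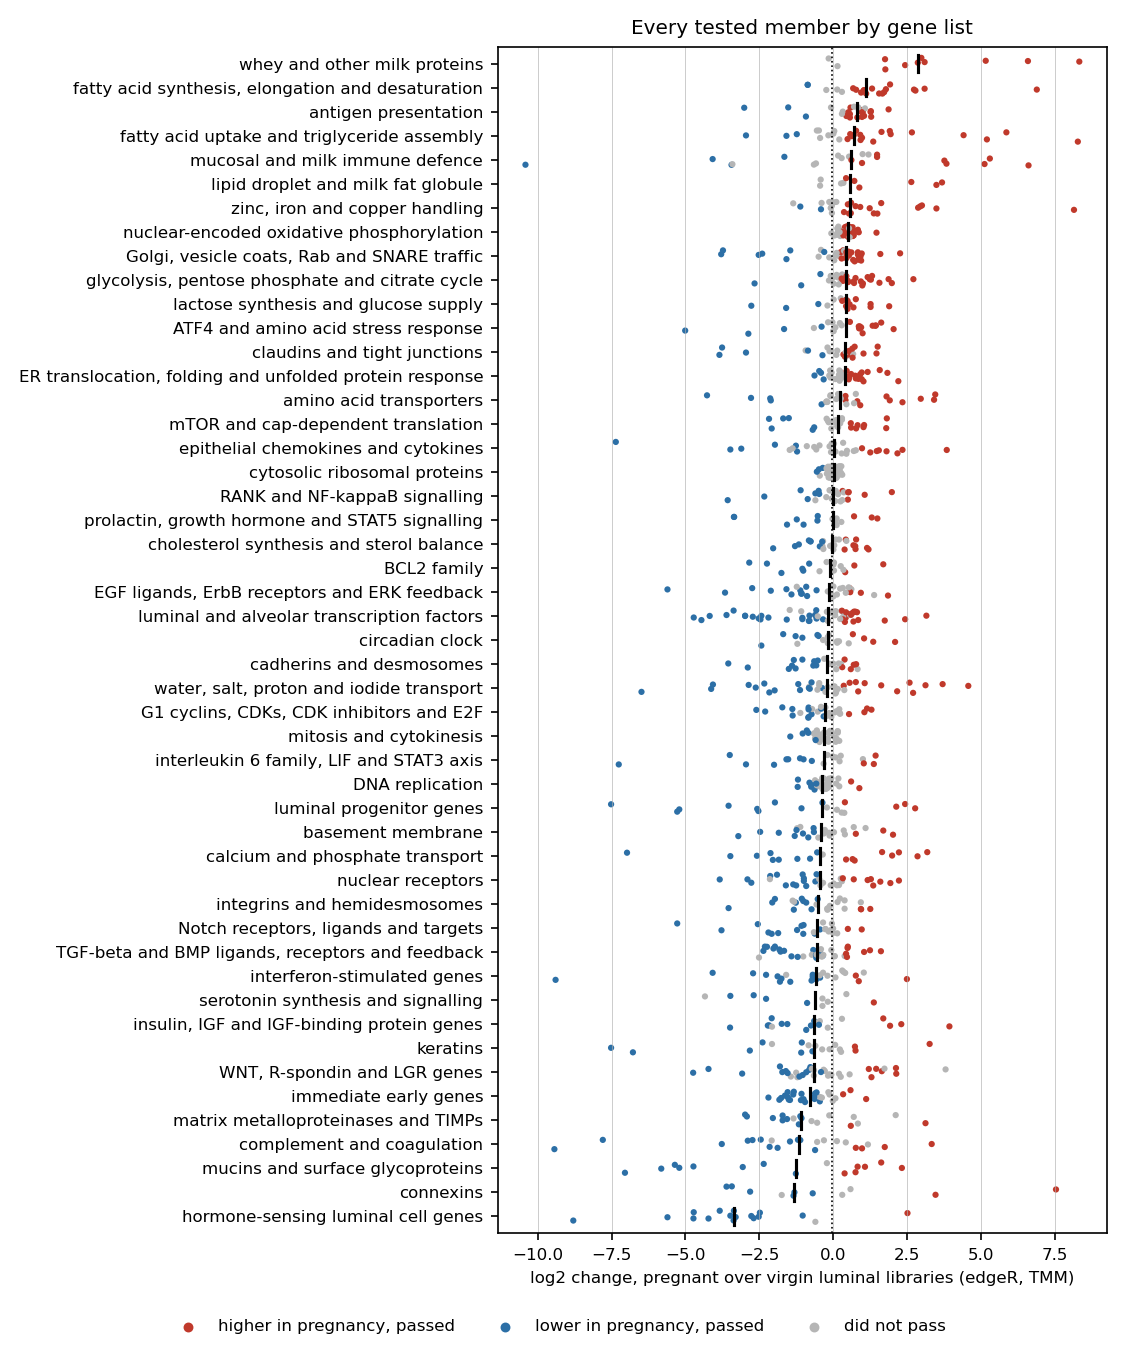
Log2 change of each tested member (horizontal axis, pregnant over virgin) for gene lists with 10 or more tested members other than marker lists, ordered by their median (black bar), red for higher and blue for lower past the threshold, grey for the rest. The dotted line marks the median of all tested genes (-0.04), and the lists run from a median of 2.87 for whey and other milk proteins to -3.36 for hormone-sensing genes.

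Of 56 tested luminal and alveolar factors 16 rose and 23 fell, and 9 rose without virgin replicate 1. Elf5 (Entrez 13711) had 707 and 758 CPM in pregnant libraries, against 131 and 140 CPM in virgin libraries (2.44, SE 0.18, adjusted p = 4.15e-07). Cited4, a co-activator partner, had 93.4 and 92.7 CPM in pregnancy and 9.43 and 11.4 CPM in virgin cells (3.16, SE 0.20). Cited1 stood opposite to its relative, with 7.03 and 8.28 CPM in pregnant and 211 and 193 CPM in virgin libraries (-4.72, SE 0.15). Tbx3, a T-box factor needed for gland formation, had 1.88 and 2.42 CPM in pregnancy and 39.5 and 38.6 CPM in virgin cells (-4.18, SE 0.24). Id3, an inhibitor of bHLH factors, fell by 4.46 (SE 0.15), and Msx2, a homeobox factor, by 3.61 (SE 0.28). Gata3, a luminal master factor, did not pass, with 107 and 110 CPM in pregnancy and 104 and 119 CPM in virgin cells.

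Prlr, the prolactin receptor (Entrez 19116), had 98.5 and 111 CPM in pregnant libraries, against 1126 and 1024 CPM in virgin libraries (-3.36, SE 0.19, adjusted p = 4.58e-08). Stat5a, its transcription factor, had 188 and 167 CPM in pregnancy and 107 and 109 CPM in virgin cells (0.71, SE 0.14), and did not pass with library size only. Stat5b did not pass at 74.0 and 74.9 CPM in pregnant and 59.7 and 63.4 CPM in virgin libraries. Among inhibitors of the pathway, Socs1 fell by 1.56 (SE 0.18) and Cav1, caveolin 1, had 7.53 and 10.9 CPM in pregnancy and 106 and 82.4 CPM in virgin cells (-3.35, SE 0.21). In the list 3 of 16 genes rose and 7 fell.

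Of 32 tested nuclear receptor genes 8 rose and 14 fell. Vdr, the vitamin D receptor, had 393 and 530 CPM in pregnant libraries and 205 and 174 CPM in virgin libraries (1.28, SE 0.17). Nr3c1, the glucocorticoid receptor, which acts with STAT5 on casein genes, had 117 and 122 CPM in pregnancy and 50.4 and 55.7 CPM in virgin cells (1.17, SE 0.12). Esr1, the oestrogen receptor, had 8.73 and 8.28 CPM in pregnant and 64.9 and 51.5 CPM in virgin libraries (-2.77, SE 0.23). The thyroid hormone receptors diverged, since Thrb had 23 and 25.8 CPM in pregnancy and 4.95 and 5.44 CPM in virgin cells (2.23, SE 0.20) while Thra had 14.9 and 16.3 CPM in pregnancy and 30.3 and 33.2 CPM in virgin cells (-1.03, SE 0.15).

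The hormone-sensing list had the lowest median of the lists with 10 or more tested members: 15 of 17 genes fell and 1 rose (median -3.36). Its genes took 0.0387% and 0.0313% of counts in pregnant and 0.519% and 0.549% in virgin libraries. Ptn, the secreted growth factor pleiotrophin (Entrez 19242), had 2.73 and 2.42 CPM in pregnant libraries, against 1073 and 1231 CPM in virgin libraries (-8.80, SE 0.16, adjusted p = 7.51e-12). Areg, amphiregulin, the EGF-family signal through which oestrogen drives ductal growth, had 14.6 and 7.20 CPM in pregnancy and 510 and 565 CPM in virgin cells (-5.61, SE 0.29). The exception was Calca, the calcitonin gene, with 100 and 76.7 CPM in pregnant and 17.8 and 13.1 CPM in virgin libraries (2.52, SE 0.53). Of 17 luminal progenitor genes 4 rose and 9 fell. Aldh1a3 fell by 2.57 (SE 0.26) and the integrin gene Itgb3, also a progenitor surface marker, by 3.54 (SE 0.25), whereas Elf5, which stands in that list too, rose.

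**Figure D4:**
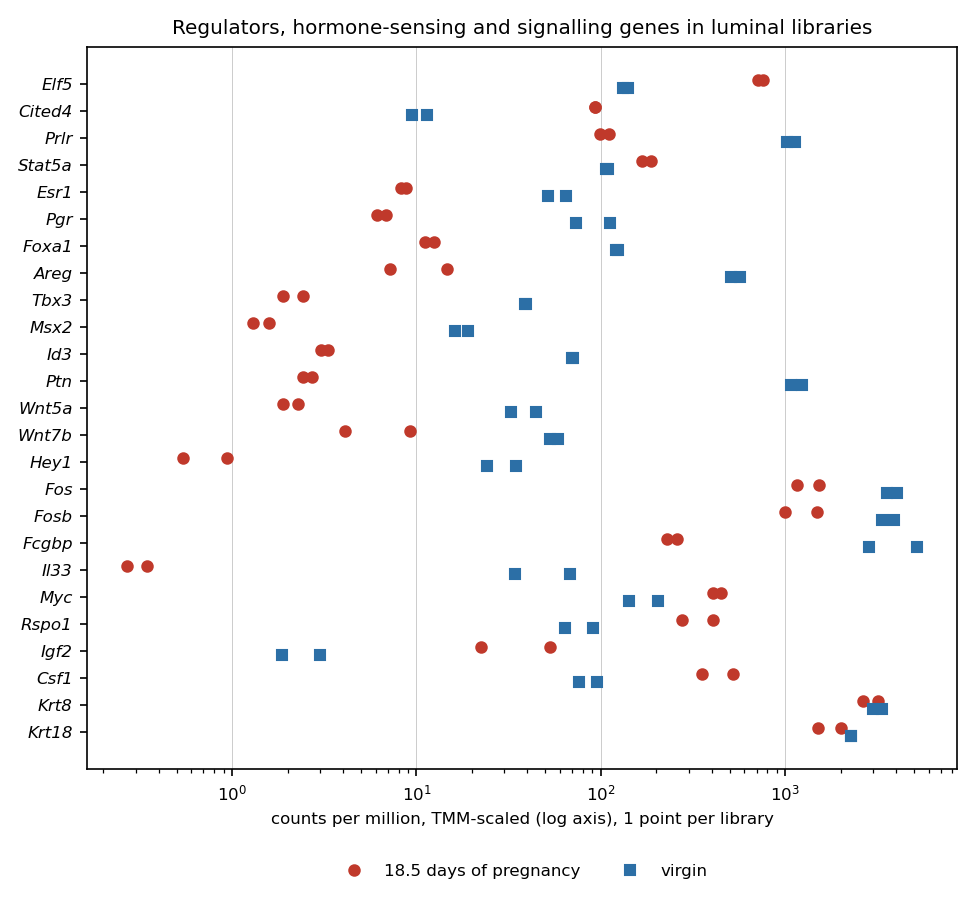
TMM-scaled CPM on a log axis, 1 point per library, for regulators, hormone-sensing genes and signalling genes, with red circles for day 18.5 of pregnancy and blue squares for virgin cells. Ptn lies at 2.73 and 2.42 CPM in pregnancy against 1073 and 1231 CPM in virgin cells, while the points of Krt8 overlap.

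For WNT, R-spondin and LGR genes 6 of 35 tested rose and 13 fell. Rspo1, a secreted enhancer of WNT signals, had 403 and 274 CPM in pregnant libraries and 90.6 and 64.2 CPM in virgin libraries (2.13, SE 0.27), and its receptor gene Lgr4 rose by 2.14 (SE 0.17). The ligand Wnt5a had 1.88 and 2.27 CPM in pregnancy and 32.5 and 44.7 CPM in virgin cells (-4.22, SE 0.22), and Wnt7b fell by 3.08 (SE 0.28). R-spondin 1 and its receptor thus stood opposite to both ligands.

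Among Notch genes 2 of 24 rose and 12 fell. Hey1, a direct Notch target, had 0.941 and 0.542 CPM in pregnant libraries, against 34.5 and 24.0 CPM in virgin libraries (-5.28, SE 0.37), and Heyl fell by 2.08 (SE 0.21). The ligand gene Jag1 had 7.88 and 7.20 CPM in pregnancy and 30.1 and 24.9 CPM in virgin cells (-1.86, SE 0.13). Nrarp, a feedback target, fell by 2.55 (SE 0.16), with 79.4% of its exon length shared with other gene models. In the TGF-beta and BMP list 7 of 33 rose and 15 fell. Tgfb2 had 125 and 130 CPM in pregnant and 46.1 and 37.1 CPM in virgin libraries (1.62, SE 0.13), and Inhbb, an activin subunit, had 39.6 and 36.7 CPM in pregnancy and 162 and 148 CPM in virgin cells (-2.02, SE 0.20).

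Of 28 EGF-family and ERK feedback genes 4 rose and 12 fell. The ligand Btc, betacellulin, fell by 2.74 (SE 0.27), and the ERK-dependent factors Etv4 and Etv5 by 3.66 (SE 0.32) and 1.58 (SE 0.21). Erbb3 did not pass, with 141 and 142 CPM in pregnancy and 130 and 129 CPM in virgin cells. Of 19 tested insulin and IGF genes 4 rose and 10 fell. Igf1r, the IGF receptor, had 7.84 and 15.4 CPM in pregnant libraries, against 57.3 and 47.0 CPM in virgin libraries (-2.17, SE 0.23), and the adaptor gene Irs1 fell by 2.08 (SE 0.21). Igf2, a growth factor, was higher at 22.3 and 53.0 CPM in pregnancy and 1.86 and 3 CPM in virgin cells (3.94, SE 0.44), though 64.5% of its exon length is shared with other gene models.

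Il13ra1, part of a receptor for interleukins 4 and 13, had 14.2 and 13.8 CPM in pregnant libraries, against 168 and 149 CPM in virgin libraries (-3.50, SE 0.20), while its partner Il4ra rose by 1.38 (SE 0.18). Osmr, the oncostatin M receptor, had 27.1 and 39.2 CPM in pregnancy and 261 and 251 CPM in virgin cells (-2.95, SE 0.25), and Il6ra rose by 1.44 (SE 0.32). In the list 3 of 19 tested genes rose and 9 fell. Of 26 RANK and NF-kappaB genes 6 rose and 7 fell, with 4 lower without pregnant replicate 2 or virgin replicate 1, and 1 higher and 14 lower with library size only. Tnfrsf11a, which encodes RANK, had 18.9 and 23.6 CPM in pregnant and 11.5 and 8.71 CPM in virgin libraries (1.07, SE 0.16). Its ligand gene Tnfsf11 was uneven, with 23.8 and 0.690 CPM in pregnancy and 23.2 and 14.1 CPM in virgin cells, and did not pass.

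Serotonin acts as a local brake on milk in the gland. Of 10 tested genes of its synthesis and signalling 1 rose (0 without pregnant or virgin replicate 1) and 4 fell, and Tph1, the enzyme that starts its synthesis, had 14.9 and 24.5 CPM in pregnant libraries and 119 and 134 CPM in virgin libraries (-2.69, SE 0.20). Of 19 circadian clock genes 4 rose and 6 fell. Arntl (BMAL1) had 31.9 and 28.6 CPM in pregnancy and 12.9 and 16.3 CPM in virgin cells (1.05, SE 0.14), and the repressor Cry2 fell by 1.69 (SE 0.14).

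The pregnant libraries differed from each other in cell cycle genes. The 42 DNA replication genes summed to 1238 and 707 CPM in pregnant libraries and 1302 and 1148 CPM in virgin libraries. The 36 genes of mitosis and cytokinesis summed to 517 and 336 CPM in pregnancy and 500 and 561 CPM in virgin cells. Pregnant library 2 was the lowest of the 4 in both sums. By the test 2 replication genes rose and 9 fell, but 30 fell without pregnant replicate 1, and 4 rose and 4 fell without pregnant replicate 2. Of the mitosis genes none rose and 6 fell by edgeR (0 and 11 at an unadjusted p below 0.05, 0 and 6 by DESeq2), with 15 lower without pregnant replicate 1 and 3 without replicate 2. Mki67, a proliferation marker, did not pass, with 80.0 and 55.6 CPM in pregnant and 62.8 and 66.6 CPM in virgin libraries. Among genes of G1 4 of 33 rose and 12 fell, with 2 higher and 4 lower without pregnant replicate 2 and 5 lower without virgin replicate 1. Myc had 406 and 450 CPM in pregnancy and 142 and 205 CPM in virgin cells (1.30, SE 0.16), and Rb1, the retinoblastoma gene, fell by 1.38 (SE 0.17).

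In the BCL2 family 3 of 16 tested genes rose and 6 fell. Bcl2l1, whose long form BCL-XL protects from apoptosis, had 244 and 276 CPM in pregnant libraries, against 70.6 and 89.1 CPM in virgin libraries (1.70, SE 0.15). Bcl2 itself had 4.08 and 5.23 CPM in pregnancy and 38.2 and 28.4 CPM in virgin cells (-2.84, SE 0.17). Bcl2l11, which encodes the death-promoting BIM, fell by 1.01 (SE 0.12). Mcl1 did not pass, with 994 and 1156 CPM in pregnant and 934 and 867 CPM in virgin libraries.

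Immediate early genes, which respond to stimuli and to tissue dissociation within minutes, took 1.26% and 1.43% of the counts of pregnant libraries, against 3.24% and 3.16% of virgin libraries. Of 28 genes 3 rose and 19 fell (median -0.79), with 1 higher without pregnant replicate 2 or virgin replicate 1. Fos had 1162 and 1518 CPM in pregnant libraries and 4010 and 3557 CPM in virgin libraries (-1.50, SE 0.29). The heat shock gene Hspb1 had 52.3 and 84.8 CPM in pregnancy and 211 and 271 CPM in virgin cells (-1.82, SE 0.22). Handling of the tissue before lysis was not measured, and its part in these differences was not tested. Gadd45b was an exception with 334 and 495 CPM in pregnant and 207 and 175 CPM in virgin libraries (1.12, SE 0.18).

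Of 25 tested claudin and tight junction genes 11 rose and 5 fell, and their median was 0.40 by TMM but -0.11 by library size (3 higher, 10 lower), and 5 rose without virgin replicate 1. Cldn8 had 65.0 and 108 CPM in pregnant libraries and 34.0 and 28.4 CPM in virgin libraries (1.47, SE 0.19), while Cldn10 fell by 3.76 (SE 0.48) and Cldn6 by 2.95 (SE 0.24). Connexins form gap junctions. Gjb6 (connexin 30) had 126 and 124 CPM in pregnant libraries, against 0.574 and 0.743 CPM in virgin libraries (7.55, SE 0.21), and Gjb2 (connexin 26) had 381 and 331 CPM in pregnancy and 34.3 and 30.1 CPM in virgin cells (3.47, SE 0.25). Of the other connexins tested 6 fell. Gjb6 and Gjb2 were the 2 of 11 that rose, and the list's summed level was 532 and 478 CPM in pregnancy against 93.3 and 100 CPM in virgin cells.

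Of 24 cadherin and desmosome genes 5 rose and 11 fell, with 3 higher without pregnant replicate 2 and 2 without virgin replicate 1. Dsp, the desmosomal plaque protein desmoplakin, had 16.2 and 20.4 CPM in pregnant libraries, against 234 and 193 CPM in virgin libraries (-3.55, SE 0.21). Pkp1, its plakophilin partner, fell by 2.89 (SE 0.22). In the integrin list 3 of 25 rose and 10 fell, with Itga6 higher at 461 and 628 CPM in pregnancy and 223 and 232 CPM in virgin cells (1.26, SE 0.15). Basement membrane genes showed 3 higher and 9 lower of 24. Lama1 had 44.7 and 59.2 CPM in pregnant and 11.8 and 13.5 CPM in virgin libraries (2.03, SE 0.16), whereas Lama5, another laminin alpha chain, had 265 and 396 CPM in pregnancy and 763 and 868 CPM in virgin cells (-1.30, SE 0.16). Of 18 tested metalloproteinase and inhibitor genes 2 rose and 9 fell, Mmp14, a collagenase of the cell surface, by 2.98 (SE 0.18).

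Krt8 had 2650 and 3163 CPM in pregnant and 3002 and 3337 CPM in virgin libraries, and neither it nor Krt18 passed the test. With library size only both passed as lower (-0.63 and -0.88). Krt19, another luminal keratin, had 1285 and 1378 CPM in pregnancy and 1990 and 2343 CPM in virgin cells (-0.70, SE 0.15). Krt6a, a keratin of ductal and stressed epithelium, had 0.582 and 0.493 CPM in pregnancy and 84.1 and 116 CPM in virgin cells (-7.52, SE 0.31), with 24.8% of its exon length shared with other gene models and with Krt6b as a close relative. Of 18 keratin genes 3 rose and 7 fell.

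Of 25 antigen presentation genes 15 rose and 3 fell (median 0.82), and 6 and 3 with library size only (median 0.32). H2-K1, a class I heavy chain, had 1345 and 1253 CPM in pregnant libraries and 717 and 655 CPM in virgin libraries (0.92, SE 0.14), where reads of related H2 genes may be shared. Of 25 interferon-stimulated genes 3 rose and 13 fell. Stat2 had 23 and 23.4 CPM in pregnancy and 60.1 and 66.3 CPM in virgin cells (-1.45, SE 0.13), but Gbp3, a guanylate-binding protein, rose by 2.50 (SE 0.20). Of 22 tested complement and coagulation genes 4 rose and 12 fell. C3, the central complement protein, had 2526 and 2307 CPM in pregnant libraries and 835 and 597 CPM in virgin libraries (1.75, SE 0.33). Fgg, a fibrinogen chain, had 1.16 and 0.937 CPM in pregnancy and 236 and 238 CPM in virgin cells (-7.80, SE 0.36).

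Of 31 tested epithelial chemokine and cytokine genes 8 rose and 6 fell, with 10 lower without pregnant replicate 2. Csf1, the macrophage growth factor, had 352 and 523 CPM in pregnant libraries, against 95.7 and 76.2 CPM in virgin libraries (2.35, SE 0.22). Ccl20, a chemokine for dendritic cells and lymphocytes, had 13.9 and 12.3 CPM in pregnancy and 0.932 and 0.878 CPM in virgin cells (3.85, SE 0.45). Il33, an alarm cytokine, had 0.269 and 0.345 CPM in pregnant libraries, against 34.2 and 68.1 CPM in virgin libraries (-7.36, SE 0.49). The direction of the list's median (0.03) was not stable. It was -0.53 without pregnant replicate 2, 0.30 without pregnant replicate 1, and -0.48 with library size only (6 higher, 13 lower).

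Outside the lists, Gldc, the glycine decarboxylase of mitochondria, had 101 and 149 CPM in pregnant libraries, against 0.645 and 0.844 CPM in virgin libraries (7.38, SE 0.25). Apln, the secreted peptide apelin, had 95.9 and 83.8 CPM in pregnancy and 1.47 and 1.05 CPM in virgin cells (6.16, SE 0.25), and Chrdl2, a BMP antagonist, rose by 6.40 (SE 0.31). These 3 genes were below 3 CPM in both virgin libraries. Among the falls Piezo2, a mechanosensitive channel, had 1.03 and 0.493 CPM in pregnant and 83.9 and 89.7 CPM in virgin libraries (-6.80, SE 0.27), and Crym, which binds thyroid hormone, fell by 6.48 (SE 0.36). Fcgbp, a mucus-associated protein, lost more CPM than any other gene that fell, with 228 and 259 CPM in pregnant libraries and 5207 and 2853 CPM in virgin libraries (-4.05, SE 0.31).

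Marker genes of other cells were present at low levels and differed between the stages. The 14 basal markers summed to 424 and 482 CPM in pregnant libraries and 138 and 171 CPM in virgin libraries. In that list 9 rose and none fell by edgeR, with 9 and 0 at an unadjusted p below 0.05 and by DESeq2. The list's median was 1.18 by TMM and 0.67 by library size (7 higher, 2 lower). Krt14 made up most of the sum in pregnant libraries, with 216 and 271 CPM in pregnancy and 16.7 and 33.7 CPM in virgin cells (3.27, SE 0.30). The basal keratin Krt5 stood at 3.94 and 3.99 CPM in pregnant and 3.76 and 3.78 CPM in virgin libraries. Acta2 rose by 1.66 in luminal and 1.90 in basal libraries, and Myh11 by 1.41 and 1.91. The basal changes of Krt14, Tagln and Krt5 were 0.26, 1.01 and 0.07, against 3.27, -0.28 and 0.07 in luminal libraries. The sum is thus no count of basal cells, and their share was not tested. The 17 endothelial markers summed to 52.6 and 42.7 CPM in pregnancy and 163 and 209 CPM in virgin cells, with 14 lower and none higher by edgeR (16 and 0 at an unadjusted p below 0.05, 15 and 0 by DESeq2). The 13 tested fibroblast markers summed to 78.3 and 56.1 CPM in pregnant and 390 and 247 CPM in virgin libraries, with 5 lower and none higher by edgeR, at an unadjusted p below 0.05 and by DESeq2. Without virgin replicate 2 it was 2 higher and 3 lower. Most of the virgin sum was Dcn, decorin, with 7.17 and 7.15 CPM in pregnant and 346 and 170 CPM in virgin libraries, while Col1a1 had 16.3 and 11.3 CPM in pregnant and 9.61 and 19.1 CPM in virgin libraries. The 8 pericyte markers summed to 106 and 104 CPM in pregnancy and 204 and 212 CPM in virgin cells, and most of that was Notch3, which is also on the luminal progenitor list. Of these 5 fell and none rose by edgeR (5 and 0 at an unadjusted p below 0.05, 6 and 0 by DESeq2), with 3 lower without pregnant replicate 2. Myeloid markers summed to 441 and 603 CPM in pregnant and 454 and 397 CPM in virgin libraries, nearly all of it Cd14, with 427 and 586 CPM in pregnant and 444 and 387 CPM in virgin libraries, which is also in the immune defence list. Erythroid markers summed to 6.94 and 4.34 CPM in pregnant and 22.8 and 14.9 CPM in virgin libraries. Adipocyte markers summed to 64.3 and 76.4 CPM in pregnancy and 39.4 and 56.2 CPM in virgin cells, nearly all of it Lipe, and Schwann cell markers to 477 and 507 CPM in pregnancy and 394 and 386 CPM in virgin cells, mostly Sox10 and Mpzl2. Lymphocyte markers stayed at or below 3.01 CPM in sum, and Adipoq, Ptprc and Cd3d were at or below 0.403 CPM in each library. The 11 luminal identity markers summed to 11520 and 14317 CPM in pregnant and 12380 and 13471 CPM in virgin libraries, above the sum of each other marker list in all 4 libraries, and 4 rose and 3 fell, with 2 higher without pregnant replicate 2 or virgin replicate 1, and 1 higher and 6 lower with library size only. The part of other cells in the changes above, including the falls of matrix, fibrinogen and growth factor genes, was not tested.

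**Figure D5:**
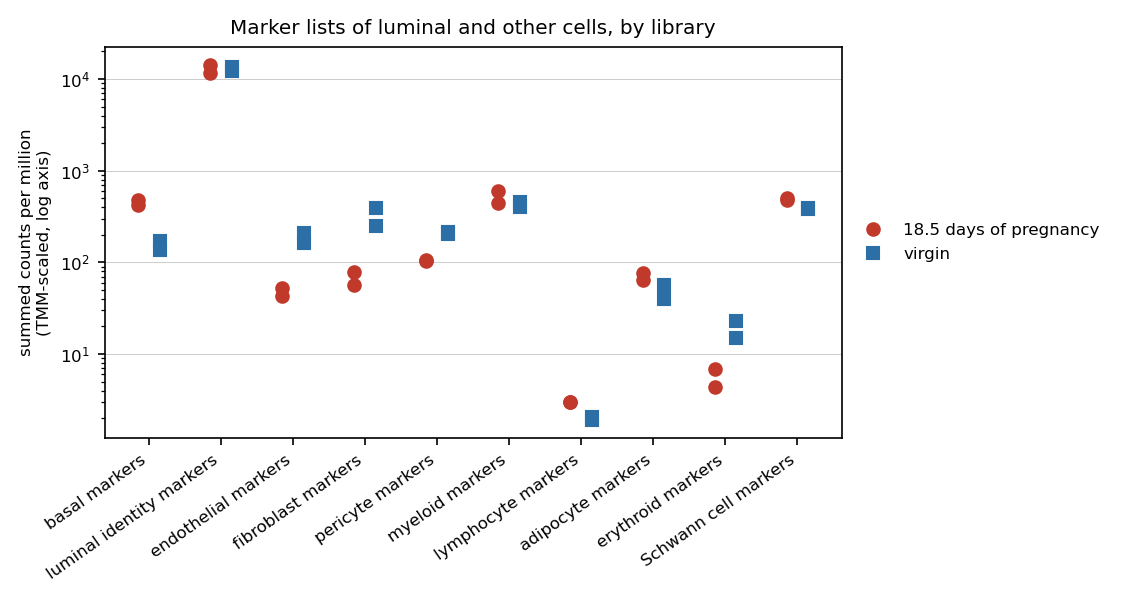
Summed TMM-scaled CPM (vertical log axis) of marker lists fixed for luminal and other cells, 1 point per library, with day 18.5 of pregnancy as red circles left of virgin as blue squares. Luminal identity markers lie at 11520 CPM or more in each library. The basal marker sum, mostly Krt14 in pregnant libraries, is higher in pregnancy (424 and 482 against 138 and 171 CPM). The endothelial sum is lower (52.6 and 42.7 against 163 and 209 CPM).

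Basal libraries of the same stages were used to ask whether the luminal change differed for the 5 genes with the largest gain and the 5 with the largest loss in CPM. Glycam1 rose in basal libraries as well, to 485 and 404 CPM in pregnancy against 3.10 CPM in each virgin library, and the luminal rise was larger by 1.18 (SE 0.33, adjusted p = 0.0168). That difference no longer passed without pregnant replicate 2, at 0.84 with an adjusted p of 0.0521. Csn1s2a, Csn2, Csn1s1 and Trf did not pass that test, nor did Fos and Fosb, of which Fosb passed without pregnant replicate 2. Ahnak, a large scaffold protein, had 1544 and 1890 CPM in pregnant luminal libraries and 3141 and 2706 CPM in virgin luminal libraries (-0.77, SE 0.24), a fall that no longer passed without pregnant or virgin replicate 1. Csn1s2a had 1801 and 1210 CPM in pregnant basal libraries and 5.88 and 9.31 CPM in virgin basal libraries. The part of luminal cells or their RNA in these basal levels of milk genes was not tested. Genes that did not pass are therefore not shown to change alike in the 2 cell types. All basal libraries ran in another lane than the luminal ones, but both stages of a cell type shared a lane.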

How the data were processed

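Reads had been assigned to genes by the authors, and the deposited table holds raw counts per Entrez gene for 12 libraries. Per the submitters' processing notes CASAVA 1.8.2, Subread 1.4.4 and featureCounts were used with GRCm38/mm10, without stated roles. The strand setting, the rule for multi-mapping reads and the annotation version: not given in the sources used here, so reads of overlapping genes or close relatives cannot be told apart. The 12 single-library files held the same counts (0 differences). Of 27179 genes 25275 received a RefSeq GRCm38.p6 symbol. Total counts per library ran from 20015386 to 24723827, and this depth bears on counting error only.

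Genes were filtered at a minimum count of 10 (filterByExpr) and fitted over all 6 groups with edgeR 4.0.16 (R 4.3.3, limma 3.58.1) after TMM scaling, with the quasi-likelihood test and Benjamini-Hochberg adjustment over 15969 genes at 0.05. DESeq2 1.42.0 was an alternative. Each SE was derived from the log2 change and its F statistic. The procedure was tested on simulated data with 200 changed genes, and for this comparison over 15969 genes it recovered 17.6% at a log2 change of 0.5, 71.4% at 1 and 95.2% at 2. The libraries, 60 gene lists and tests were chosen with earlier results of these data known. Named genes are the 12 largest rises and falls in log2 change with at least 10 CPM, the 10 largest gains and losses in CPM, and up to 6 called members of each list with at least 5 CPM (320 genes). A further 48 called genes were chosen after their values were seen. Shared exon length comes from GENCODE vM21. Alternatives were other scalings, filters, tests, library sets, a replicate block and each library left out.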

Additional observations from a re-analysis of the deposited data

Results flagged for a closer look

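For 4 of 10 genes, the 5 with the largest gain and the 5 with the largest loss in CPM, the change with pregnancy differed between luminal and basal cells by edgeR's quasi-likelihood test of that difference, with Benjamini-Hochberg adjustment. The count was 2 without luminal pregnant replicate 1 and 2 without luminal virgin replicate 1, where Ahnak and Lmna did not pass. It was 4 without luminal pregnant replicate 2, where Glycam1 did not pass (0.84, adjusted p = 0.0521) and Fosb did, and 0 in the test against a 2-fold change (1 at an unadjusted p below 0.05, 5 by DESeq2 against no change). Over all genes 30.7% passed the test of the difference. Luminal and basal libraries ran in different lanes, and both stages of a cell type shared a lane. For Glycam1 the luminal rise exceeded the basal one by 1.18 (SE 0.33, adjusted p = 0.0168), with 485 and 404 CPM in pregnant basal libraries and 3.10 CPM in each virgin basal library. For Fcgbp the difference was -1.81 (SE 0.40, adjusted p = 0.00477), and it fell in the libraries of both cell types. Pregnant basal libraries had 21.9 and 20.2 CPM and virgin basal libraries 122 and 77.1 CPM, against 5207 and 2853 CPM in virgin luminal libraries. The part of luminal RNA in the basal levels of Fcgbp and Glycam1 was not tested. For Ahnak the difference was -1.15 (SE 0.34, adjusted p = 0.0212), with 1485 and 1999 CPM in pregnant basal libraries and 1221 and 1457 CPM in virgin basal libraries. For Lmna, which encodes the nuclear lamins A and C, it was -0.84 (SE 0.25, adjusted p = 0.0229), with 1472 and 1922 CPM in pregnant basal libraries and 1612 and 1744 CPM in virgin basal libraries.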

How the results depend on the processing

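Against 7335 changed genes, the alternatives gave 5673 to 9638 apart from the test against a 2-fold change, which gave 1831 (595 higher, 1236 lower). Leaving out 1 library gave 5673 to 6133, of which 2564 to 2898 were higher and 3109 to 3235 lower. Library size alone gave 1212 higher and 8426 lower, and turned Rab18 to -0.07, Cd68 to -0.10, Sox10 to -0.11, Slc2a1 to -0.02 and Hk2 to -0.06. Of 368 named genes 340 kept direction and call with library size only, 365 with DESeq2's test, 368 with its size factors, and 345 to 356 with 1 library left out. The count of luminal against basal differences among 10 genes was 4, against 0 in the test against a 2-fold change (1 at an unadjusted p below 0.05, 5 by DESeq2), and 2 to 4 with 1 luminal library left out, of which Fcgbp passed each time. Between pregnant and virgin luminal libraries the deviations of same-numbered libraries had a correlation of 0.025 over 11194 genes. The replicate block gave 7436 calls. Whether luminal and basal libraries of the same stage and number share a mouse was not checked. The test of luminal against basal changes took them as unpaired. With 2 libraries a group, 17.6% of changes of 0.5 on the log2 scale were recovered in simulation. Only 200 genes changed there, against 7335 called in these data, which makes the adjusted threshold of the simulation stricter. Its share recovered therefore does not carry over to this comparison.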
